A study of Mus musculus with 12 samples.

Results

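Type 17 lymphocytes are named for interleukin 17A, and the genes followed here are 3 of their cytokines and 6 receptors or regulators of the same programme: Il17a, Il17f, Il22, Il23r, Il1r1, Il17re, Ccr6, Rora and Maf. They were chosen by name, with earlier results of these data known, and all 9 were found among the 56941 genes of the deposited table. The tissue was the mandibular lymph node of the mouse, which drains the ear. Mice were wild type (WT) or lacked the microRNA miR-451a (KO), and all were sensitized with 1-fluoro-2,4-dinitrobenzene (DNFB), a contact allergen, 100 µl at 0.5% on abdominal skin on days 0, 1 and 2. The study asks how the microRNA bears on the IL-17A response to this allergen.

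Each of the 4 groups held 3 libraries. WT_se and KO_se were the sensitized wild-type and knockout nodes, taken on day 9 with no ear challenge. WT_DTH and KO_DTH were the nodes of mice that also received 20 µl of 1% DNFB on the left ear on day 9 and were harvested 24 hours later, on day 10. Challenge therefore always came with harvest on day 10, and challenge and day of harvest cannot be told apart. Strain, age and sex are not given in the sources used here, nor is how the knockout was made. Nothing in the labels ties a library to an animal, and p-values therefore cover the spread between libraries, which may be technical. Mir451a was not analysed here, so the genotype labels were not checked on the deleted gene.

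In outline, IL-1 and IL-23 act through the receptors encoded by Il1r1 and Il23r on type 17 cells, which then release IL-17A, IL-17F and IL-22. These cytokines act on epithelium and stroma, where they raise antimicrobial proteins and chemokines that draw neutrophils. The nuclear receptor RORα and the factor c-Maf take part in driving the programme, in helper T cells and in gamma-delta T cells, which can make IL-17A quickly and without prior priming. Il17re encodes a subunit of the receptor for IL-17C, and Ccr6 a chemokine receptor used by type 17 cells to reach inflamed epithelium and also carried by B cells.

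The promoters of the 3 cytokines and of Il23r are printed from 250 bases before to 50 after the start site, since these genes carried most of the changes below. They come from RefSeq (GRCm38.p6), run 5′ to 3′ on the strand of the gene and lie at chr1:20730655-20730954, plus strand (Il17a), chr1:20784221-20784520, minus strand (Il17f), chr10:118204714-118205013, plus strand (Il22) and chr6:67491806-67492105, minus strand (Il23r). Capitals mark the core of a ROR half-site (AGGTCA, either strand, so also TGACCT), the AP-1 site TGANTCA (either strand), the STAT site TTCNNNGAA (either strand) and the TATA box TATAAA (strand of the gene).
Il17a promoter: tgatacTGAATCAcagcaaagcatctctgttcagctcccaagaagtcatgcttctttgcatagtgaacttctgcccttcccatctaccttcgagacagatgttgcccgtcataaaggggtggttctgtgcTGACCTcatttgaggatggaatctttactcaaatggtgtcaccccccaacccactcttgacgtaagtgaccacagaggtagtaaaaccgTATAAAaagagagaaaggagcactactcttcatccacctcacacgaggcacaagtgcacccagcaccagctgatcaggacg
Il17f promoter: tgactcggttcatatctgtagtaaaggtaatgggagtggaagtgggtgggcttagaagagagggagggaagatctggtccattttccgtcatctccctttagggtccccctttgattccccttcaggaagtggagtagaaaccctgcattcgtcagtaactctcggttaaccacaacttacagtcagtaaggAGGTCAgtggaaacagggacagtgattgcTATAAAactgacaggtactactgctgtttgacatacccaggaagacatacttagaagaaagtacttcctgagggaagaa
Il22 promoter: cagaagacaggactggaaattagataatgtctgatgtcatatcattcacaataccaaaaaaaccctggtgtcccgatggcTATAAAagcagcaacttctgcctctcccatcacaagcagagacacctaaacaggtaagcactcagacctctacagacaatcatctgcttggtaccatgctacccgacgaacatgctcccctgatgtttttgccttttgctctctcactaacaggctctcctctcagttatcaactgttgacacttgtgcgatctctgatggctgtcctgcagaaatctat
Il23r promoter: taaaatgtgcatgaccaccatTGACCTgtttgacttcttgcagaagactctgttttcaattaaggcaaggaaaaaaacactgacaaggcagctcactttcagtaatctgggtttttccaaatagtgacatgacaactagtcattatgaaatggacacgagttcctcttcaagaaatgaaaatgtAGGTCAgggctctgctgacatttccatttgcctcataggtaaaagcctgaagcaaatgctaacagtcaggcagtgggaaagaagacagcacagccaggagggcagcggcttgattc

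The ROR core stood 120 bases before the start of Il17a, 58 before that of Il17f, and 229 and 66 before that of Il23r. Ccr6 also held it 44 bases before 1 of its 2 annotated starts, and the Il22 window held none. Of 32851 promoters of this length 16.3% held the core, 8.3% a TATA box, 8.3% the STAT site and 7.8% the AP-1 site. The TATA box lay 31 bases before the start in Il17a and 29 in Il17f, and 170 before the annotated start in Il22. A promoter was found for 8 of the 9 genes, all but Maf. These matches describe letters only and say nothing of binding.

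The deleted microRNA is shown for its seed, bases 2 to 8 in capitals (RefSeq, chr11:78073186-78073207, plus strand, GRCm38.p6).
miR-451a: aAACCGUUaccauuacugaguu

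No annotated 3′ UTR of the 9 genes held a 7-base match to this seed. In all, 466 of 21129 genes with an annotated 3′ UTR held one, or 2.21%.

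The libraries held 36946696 to 58405576 estimated counts. Levels are in CPM, that is, counts relative to the TMM-scaled library total, and all 9 genes passed the filter on low counts, as did 20034 genes in all. A gene was called when its adjusted p in edgeR's quasi-likelihood test, over those 20034 genes, was under 0.05. T and B cell genes were high in every library, with pan T cell genes summing to 1830 to 3370 CPM and B cell genes to 1480 to 2920, while stromal lymph node genes summed to 16.6 to 129. Salivary gland genes were also present and differed between groups, at 7.78 to 15.8% of counts in WT_se and 1.79 to 2.95% in WT_DTH, against 2.62 to 6.79% in KO_se and 3.68 to 10.6% in KO_DTH. With a salivary score as covariate 3 of the 14 calls described below were kept, all of them of Il17a or Il17f. Over all genes the same covariate took the number called from 3755 to 8 and from 1938 to 888 with challenge in wild type and knockout, from 1035 to 89 and from 120 to 2 with genotype in sensitized and challenged nodes, and from 422 to 0 for the interaction. Among the lost calls, Il17re in sensitized nodes (1.37 without and 1.92 with the score) and Il17f with challenge in the knockout (-1.77 and -1.92) stayed as large. So did the Il17a interaction (-1.99 and -2.4). The other lost estimates were smaller with the score. With challenge they were Il22 (3.34 and 1.97) and Il17re (-1.21 and -0.32) in wild type and Il23r (-1.2 and -0.92) in the knockout. In sensitized nodes they were Il22 (3.2 and 2.38), Il23r (1.58 and 1.14) and Il1r1 (1.73 and 1.44). In challenged nodes they were Il17a (3.27 and 3.02) and Il17re (1.74 and 1.01). The part of gland RNA in the 11 lost calls was not tested.

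**Figure D1:**
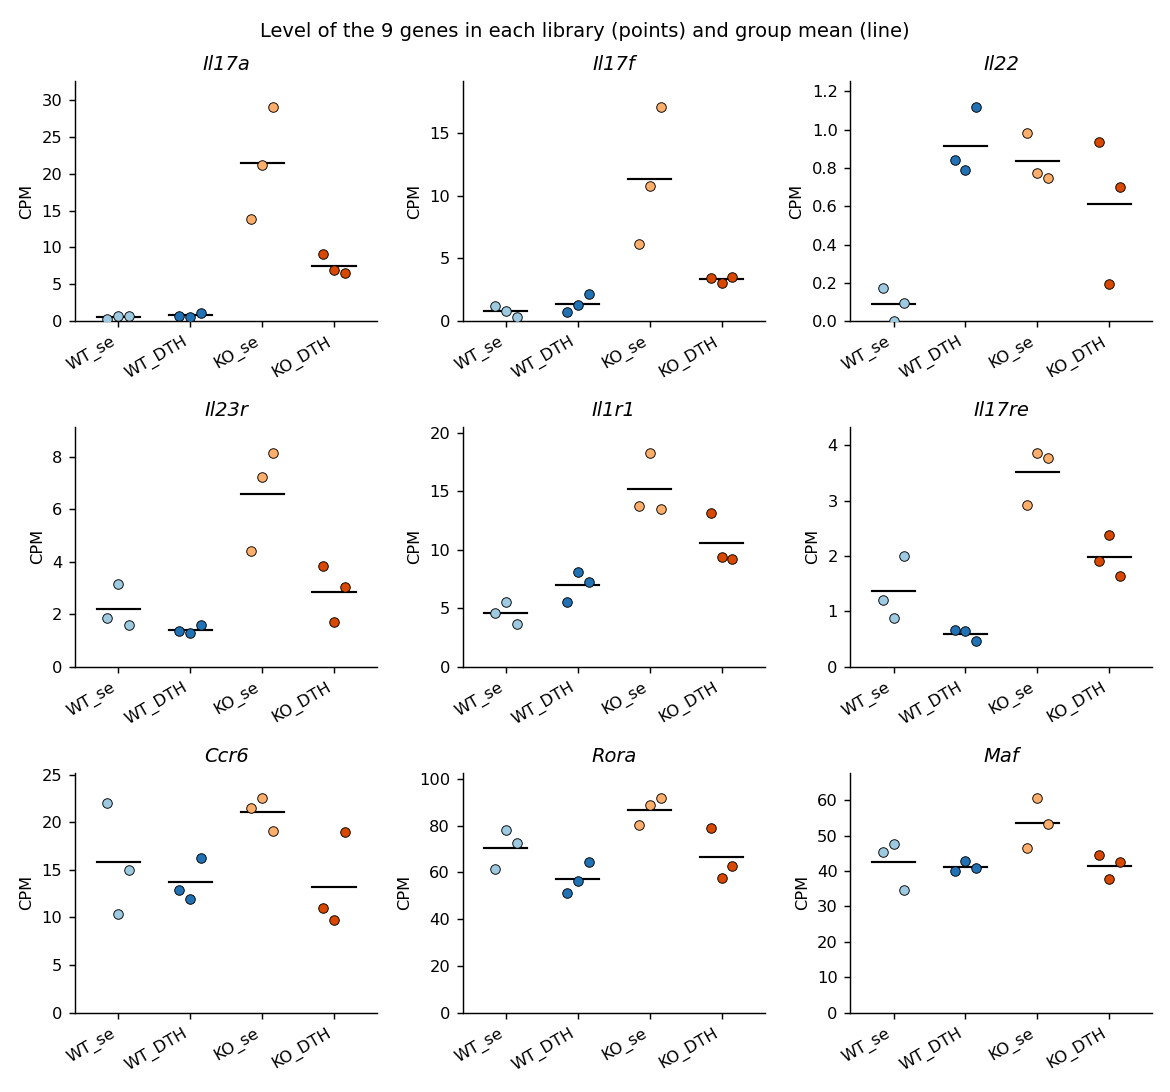
Each panel plots 1 gene in CPM on a linear axis from 0, with a point for each of the 12 libraries and a line at the group mean (n = 3). The 3 KO_se points lie above every wild-type point for Il17a, Il17f, Il23r, Il1r1, Il17re and Rora, whereas the groups overlap for Ccr6 and Maf.

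Il17a, the cytokine that names the lineage, was close to absent from wild-type nodes and was measured at 6.46 to 29.1 CPM in knockout nodes. WT_se libraries held 0.345, 0.696 and 0.619 CPM and WT_DTH libraries 0.637, 0.606 and 1.07. KO_se libraries held 13.9, 21.2 and 29.1 CPM, and KO_DTH libraries 9.12, 6.94 and 6.46. The WT groups overlapped each other, every KO library lay above every WT library, and KO_DTH lay wholly below KO_se.

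Behind these levels stood 12 to 61 counts per wild-type library and 268 to 1363 per knockout library. In sensitized nodes Il17a was higher in the knockout by 5.26 ± 0.36 on the log2 scale (SE), or 38.3-fold (edgeR adjusted p = 1.6e-05), and in challenged nodes by 3.27 ± 0.33, or 9.65-fold (edgeR adjusted p = 0.000819). Within the knockout it fell with challenge by 1.51 ± 0.29 on the log2 scale (edgeR adjusted p = 0.00648), and within wild type the difference was 0.48 ± 0.36 and was not called (edgeR adjusted p = 0.418). The first of these calls was kept in every other setting run; the challenged-node call was lost with either salivary covariate (adjusted p = 0.338 and 0.679), where the estimates were 3.02 and 2.68.

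Il17f, whose product pairs with IL-17A and shares its receptor, lies next to Il17a with no annotated gene between them. WT_se libraries held 1.24, 0.777 and 0.31 CPM, and WT_DTH libraries 0.705, 1.27 and 2.14. KO_se libraries held 6.15, 10.8 and 17.1 CPM, and KO_DTH libraries 3.4, 3.04 and 3.52. The order of the groups was that of Il17a, with the WT groups again overlapping and each KO group clear of the others.

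Il17f was higher in sensitized knockout nodes by 3.88 ± 0.53 on the log2 scale, or 14.8-fold (edgeR adjusted p = 0.00218), and fell with challenge in the knockout by 1.77 ± 0.47 (edgeR adjusted p = 0.0326). The fall was called in 1 of the 6 fits that left out a library, with adjusted p from 0.0231 to 0.139. In challenged nodes the groups did not overlap, yet the difference of 1.27 ± 0.48 was not called (95% interval 0.23 to 2.3, edgeR adjusted p = 0.241).

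Per kilobase of exon, Il17a stood at 0.473 ± 0.157 CPM in WT_se and 0.659 ± 0.223 in WT_DTH, against 18.3 ± 6.49 in KO_se and 6.41 ± 1.21 in KO_DTH (SD, n = 3). Il17f on the same length scale stood at 0.383 ± 0.23, 0.679 ± 0.359, 5.61 ± 2.73 and 1.64 ± 0.124 in that order. The ratio of the pair per kilobase was 1.83 ± 1.51, 1.08 ± 0.413, 3.42 ± 0.49 and 3.91 ± 0.728, so Il17a led Il17f in every knockout library (2.93 to 4.62) and not in every wild-type library (0.482 to 3.45).

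Il22, which encodes a cytokine acting on epithelium, followed another order and rested on few counts. WT_se libraries held 6, 0 and 4 counts, WT_DTH libraries 37, 43 and 64, KO_se libraries 55, 36 and 35, and KO_DTH libraries 47, 8 and 29. In CPM the group means were 0.0893 ± 0.0865, 0.919 ± 0.18, 0.835 ± 0.129 and 0.61 ± 0.378 (SD, n = 3). WT_se lay below the 3 other groups, which overlapped one another.

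Il22 rose with challenge in wild type by 3.34 ± 0.81 on the log2 scale (edgeR adjusted p = 0.0123), a call kept in all 6 fits without 1 library. The estimate was 1.97 ± 1.7 with the salivary score and 2.09 ± 1.7 with the 2 salivary components. With neither was Il22 called in this comparison (edgeR adjusted p = 0.79 and 0.743). It was higher in sensitized knockout than in sensitized wild-type nodes by 3.2 ± 0.8 (edgeR adjusted p = 0.0389), a call lost in all 6 such fits (adjusted p 0.0573 to 0.109). In the knockout the challenge difference was -0.45 ± 0.68 and in challenged nodes the genotype difference was -0.58 ± 0.68, with 95% intervals from -1.93 to 1.03 and from -2.06 to 0.89. A near copy of Il22, Iltifb, held 3 counts over all libraries, so reads placed on the copy were few.

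Il23r, the IL-23 receptor chain that sustains type 17 cells, was measured at 1.87, 3.16 and 1.6 CPM in WT_se and 1.36, 1.3 and 1.6 in WT_DTH. KO_se libraries held 4.4, 7.23 and 8.16 CPM, and KO_DTH libraries 3.84, 1.72 and 3.04. KO_se lay above all other groups, while KO_DTH overlapped WT_se. Il23r was higher in sensitized knockout nodes by 1.58 ± 0.35 on the log2 scale (edgeR adjusted p = 0.023) and fell with challenge in the knockout by 1.2 ± 0.35 (edgeR adjusted p = 0.0461). Each of these 2 calls was kept in 2 of 6 fits without 1 library.

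Il1r1, the signalling receptor for IL-1, was measured at 4.58, 5.52 and 3.62 CPM in WT_se and 5.53, 8.11 and 7.22 in WT_DTH. KO_se libraries held 13.7, 18.3 and 13.5 CPM, and KO_DTH libraries 13.1, 9.39 and 9.18. No 2 groups overlapped, in the order WT_se, WT_DTH, KO_DTH, KO_se. Only the sensitized genotype difference was called, at 1.73 ± 0.22 on the log2 scale or 3.32-fold (edgeR adjusted p = 0.00172), and it was called in all 6 fits without 1 library. The challenge difference in wild type was 0.61 ± 0.22 and missed the threshold (edgeR adjusted p = 0.0714), though DESeq2's Wald test gave 0.0404.

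Il17re was measured at 1.21, 0.884 and 2 CPM in WT_se and 0.66, 0.643 and 0.474 in WT_DTH. KO_se libraries held 2.93, 3.87 and 3.78 CPM, and KO_DTH libraries 1.91, 2.38 and 1.64. WT_DTH lay below every other group and KO_se above every other group. Il17re fell with challenge in wild type by 1.21 ± 0.34 on the log2 scale (edgeR adjusted p = 0.0255), and was higher in the knockout by 1.37 ± 0.33 in sensitized nodes (edgeR adjusted p = 0.0323) and by 1.74 ± 0.34 in challenged nodes (edgeR adjusted p = 0.0422). Without 1 library these calls were kept in 2, 1 and 1 of 6 fits. The call in wild type was lost without WT_se replicate 3, where the fall was -0.82 and the adjusted p 0.121.

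Ccr6 was called in no comparison of the TMM fit over all 12 libraries. It ranged from 10.4 to 22 CPM in WT_se and 11.9 to 16.2 in WT_DTH, against 19.1 to 22.5 in KO_se and 9.68 to 19 in KO_DTH. KO_se and KO_DTH did not overlap, with a difference of -0.67 ± 0.27 on the log2 scale that was not called (edgeR adjusted p = 0.148). Without KO_DTH replicate 3 it was -1.03 and was called (edgeR adjusted p = 0.0297), and in the 5 other fits without 1 library it was not. B cells carry this receptor too, and B cell genes summed to 1480 to 1860 CPM in WT_se and 2310 to 2920 in WT_DTH, against 2040 to 2920 in KO_se and 2050 to 2830 in KO_DTH.

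Rora, the gene of RORα, and Maf had the highest CPM of the 9, and neither was called in any comparison of the TMM fit over all 12 libraries. DESeq2's Wald test called both lower with challenge in the knockout (adjusted p = 0.0287 and 0.0386). Rora was measured at 61.3, 78.1 and 72.6 CPM in WT_se, 51, 56.5 and 64.6 in WT_DTH, 80.1, 88.8 and 91.7 in KO_se, and 79, 57.8 and 62.9 in KO_DTH. KO_se lay above the 3 other groups, which overlapped, and the largest of its log2 differences was -0.38 ± 0.13 with challenge in the knockout (edgeR adjusted p = 0.0785). Maf ranged from 34.7 to 47.5 CPM in WT_se and 40.1 to 42.8 in WT_DTH, against 46.6 to 60.5 in KO_se and 37.6 to 44.5 in KO_DTH. Its group order was WT_DTH, KO_DTH, WT_se, KO_se, with each neighbouring pair overlapping. Scaling to pan T cell genes turned the sign of the wild-type challenge difference of Rora, Ccr6 and Maf, to 0.25, 0.33 and 0.52. Of these Maf was called (edgeR adjusted p = 0.00581). In sensitized nodes that scaling called Rora and Maf higher in the knockout (edgeR adjusted p = 0.0345 and 0.0138), whereas the gamma-delta scaling described below called both lower there.

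Counted together, 1 of the 9 was called higher and 1 lower with challenge in wild type, where 9.77% of all genes tested were called higher and 8.97% lower. With challenge in the knockout 0 were called higher and 3 lower (5.81% and 3.86% of all genes), and the estimates of all 9 were negative, with a median of -0.67. In sensitized nodes 6 were called higher in the knockout and 0 lower (3.76% and 1.4% of all genes), and the estimates of all 9 were positive, with a median of 1.58. In challenged nodes 2 were called higher and 0 lower (0.514% and 0.0849% of all genes), with a median of 0.6. The median over all genes tested was -0.01 for the sensitized genotype difference and 0.01 for the challenged one. Where 0 members were called in a direction, 0 had an unadjusted p under 0.05 in that direction in edgeR. These comparisons share groups: KO_se enters both the sensitized genotype difference and the knockout challenge difference. The 9 genes were also chosen with earlier results of these data known.

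**Figure D2:**
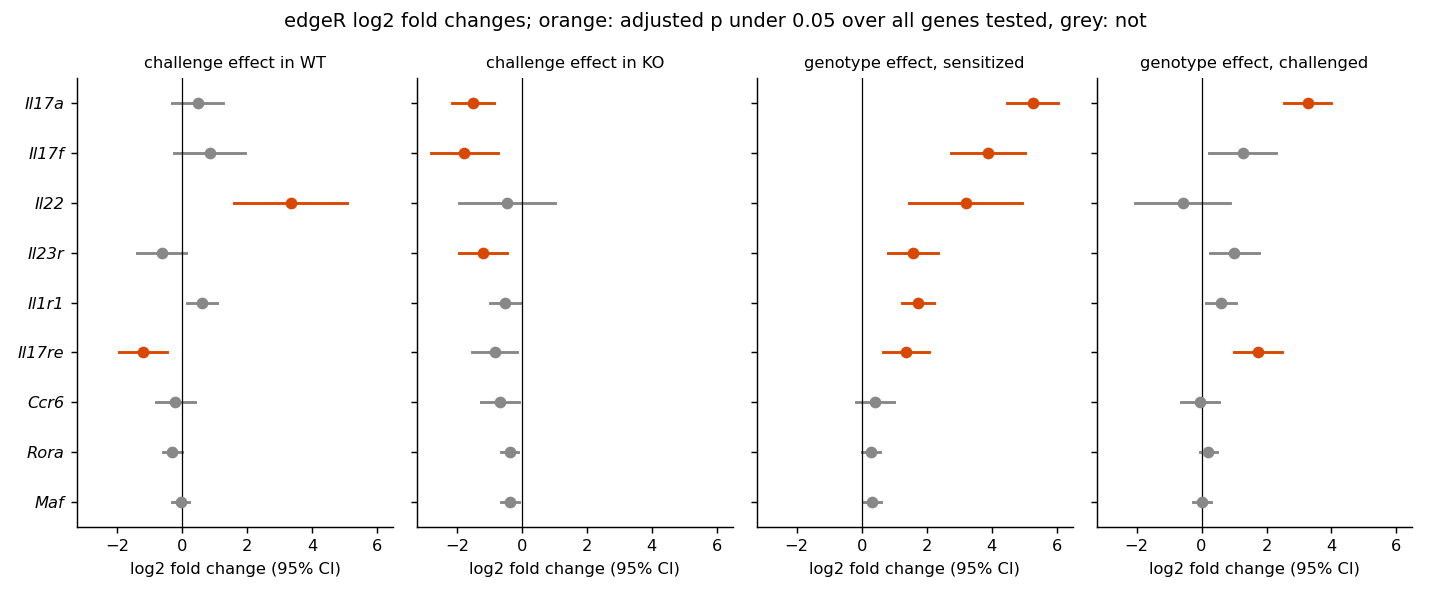
The log2 fold change of each gene is plotted with its 95% interval for 4 comparisons, challenged against sensitized in each genotype and knockout against wild type in each state. Orange marks adjusted p under 0.05 over all genes tested. Il17a at 5.26 lies farthest from 0, and Ccr6, Rora and Maf are grey throughout.

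Whether challenge acted differently in the 2 genotypes was tested as the interaction. Il17a was the 1 member called, at -1.99 ± 0.46 on the log2 scale (edgeR adjusted p = 0.0476), and 0 were called higher; 0.439% of all genes were called lower and 1.67% higher. Leaving out any of the 12 libraries ended this call (adjusted p 0.0525 to 0.117), with the estimate between -2.22 and -1.7. Il22 at -3.78 ± 1.05, Il17f at -2.62 ± 0.69 and Il1r1 at -1.13 ± 0.3 were not called (edgeR adjusted p = 0.082, 0.0697 and 0.0733), while DESeq2's Wald test called 4 members.

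Other cell type genes moved beside these. The 10 measured gamma-delta T cell genes other than Maf summed to 130 to 134 CPM in WT_se and 148 to 195 in WT_DTH. In KO_se and KO_DTH they summed to 374 to 439 and 279 to 404. Of the 10, 9 were called higher in the knockout in each state (3.76% and 0.514% of all genes). Blk had the largest mean of the 10 in each group, at 78.3 and 132 CPM in WT_se and WT_DTH and 152 and 138 in KO_se and KO_DTH. Trdc, the next largest in wild type, stood at 16.4 and 13.6 CPM in WT_se and WT_DTH. The other receptor constant genes Tcrg-C1, Tcrg-C2 and Tcrg-C4 stood at 3.7 and 2.73, 3.06 and 3.34, and 2.27 and 2.28. The higher sum in WT_DTH thus came with Blk and not with the receptor constant genes. B cell genes were also higher in WT_DTH than in WT_se, and the part of B cells in the level of Blk was not tested. With challenge in wild type 1 of the 10 was called higher and 1 lower (9.77% and 8.97% of all genes), with a median log2 difference of -0.14. In WT_se, WT_DTH, KO_se and KO_DTH, pan T cell genes summed to 2700 to 3370, 1830 to 2390, 2390 to 2840 and 2030 to 2230 CPM. Innate lymphoid and NKT cell genes summed to 279 to 332, 252 to 293, 305 to 372 and 297 to 394 CPM in the same order. Ltb and Id2 had the highest means of that list, 130 and 110 CPM in WT_se. Of its 10 genes 1 was called higher in sensitized knockout nodes (3.76% of all genes). In bulk RNA, fewer cells of a type and less RNA per cell cannot be told apart.

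Set against the 4 receptor constant genes Trdc, Tcrg-C1, Tcrg-C2 and Tcrg-C4 of the same library, Il17a kept the group order it had in CPM. It stood at 22 ± 7.32 counts per 1000 counts of those genes in WT_se and 34.9 ± 10 in WT_DTH, against 191 ± 36.6 in KO_se and 102 ± 16.4 in KO_DTH (SD, n = 3), with no overlap between knockout and wild-type libraries. Il22 stood at 3.83 ± 3.57, 41.8 ± 6.15, 7.94 ± 2.96 and 8.39 ± 5.31 on the same scale, so that WT_DTH alone lay apart.

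A fit scaled to these 4 genes was added after the counts of the members were seen. It moved the median of all genes by -2.11 in the sensitized and -1.7 in the challenged genotype difference (log2). Il17a was still called higher in the knockout, with smaller differences of 3.11 in sensitized and 1.54 in challenged nodes (edgeR adjusted p = 2.64e-07 and 0.000734). Its challenge difference in the knockout became -0.90 and its interaction -1.57, and neither was called (edgeR adjusted p = 0.0882 and 0.139). The sensitized genotype differences of Il23r, Il1r1 and Il17re, called on the TMM scale, became -0.53, -0.36 and -0.82. Those of Rora, Ccr6 and Maf became -1.82, -1.72 and -1.78. Il17f kept its sign in sensitized nodes and had -0.42 in challenged nodes.

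**Figure D3:**
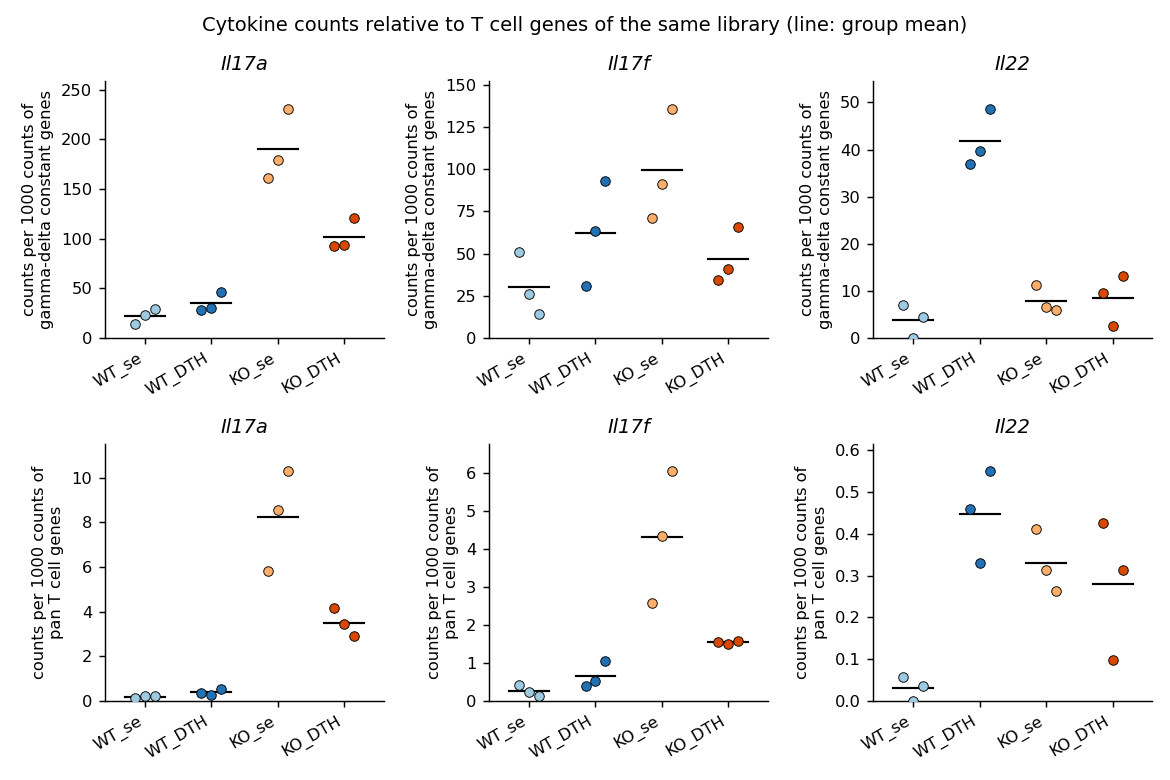
Counts of Il17a, Il17f and Il22 are plotted per 1000 counts of the 4 gamma-delta receptor constant genes (top) or of 12 pan T cell genes (bottom), 1 point per library with a line at the group mean. Il17a is highest in KO_se on both scales (161 to 231 and 5.84 to 10.3), whereas Il22 is highest in WT_DTH relative to the gamma-delta genes (37 to 48.7).

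The 10 genes whose log2 CPM followed Il17a most closely over the 12 libraries, among 12204 genes with a mean of at least 50 counts, had Pearson correlations of 0.956 to 0.981. They were Tcrg-C4, Tcrg-C1 and Tcrg-C2, constant genes of the gamma receptor chain, the gamma-delta T cell gene Cd163l1, the mitotic genes Tpx2, Prc1, Hmmr, Ube2c and Ccnb1, and the galectin gene Lgals1. The 12 points share 4 groups, and KO_se had the highest mean of the 4 for each of the 10 genes. Over the same libraries Il17a had a correlation of 0.91 with Il17f, 0.91 with Il1r1, 0.83 with Il23r and 0.81 with Il17re, against 0.45 with Il22 and 0.3 with Ccr6. Within groups, after each group's mean was removed, the value with Il17f was 0.28 and that with Rora 0.82.

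The other genes of the pathway came from 9 lists with 90 genes, of which 84 were tested. With challenge in wild type 27 were called higher and 7 lower (9.77% and 8.97% of all genes tested), and in the knockout 11 and 4 (5.81% and 3.86%). Between genotypes 7 were called higher and 4 lower in sensitized nodes (3.76% and 1.4% of all genes), and in challenged nodes, where 0.514% and 0.0849% of all genes were called, 1 of these 84, Nfkb1, was called, lower in the knockout (-0.33 ± 0.07 on the log2 scale, edgeR adjusted p = 0.0493). Il17b, Il25, Il22ra1, Cxcl5 and Defb3 had 0 counts in every library, and Il23a, which encodes the IL-23-specific chain, had 51 counts in all and was not tested.

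Among 14 transcription factors and kinases, 7 were called higher with challenge in wild type and 1 in the knockout (9.77% and 5.81% of all genes). In sensitized nodes 1 was called higher and 1 lower in the knockout (3.76% and 1.4% of all genes). Stat3, which relays IL-6 and IL-23 signals, rose with challenge in both genotypes, by 1.03 ± 0.09 and 0.86 ± 0.09 (edgeR adjusted p = 2.55e-05 and 8.36e-05). Ahr rose with challenge in wild type by 1.06 ± 0.12, and Irf4 was higher by 0.67 ± 0.12 in sensitized knockout nodes (edgeR adjusted p = 0.000127 and 0.00704). Fosl2, an AP-1 family gene, was lower there, at -0.58 ± 0.13 (edgeR adjusted p = 0.0229).

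Of the inducing cytokines, Il1b rose with challenge by 2.12 ± 0.27 in wild type and 1.55 ± 0.26 in the knockout (edgeR adjusted p = 0.000258 and 0.00282). Of the 8 tested edgeR called 0 between genotypes in either state, with 3 and 2 at an unadjusted p under 0.05, and DESeq2's Wald test called 2 and 0. Monocyte and macrophage genes moved beside it: the 10 on that list, all detected and 1 of them Ccr2, summed to 465 to 605 CPM in WT_se and 1120 to 1880 in WT_DTH, against 634 to 863 in KO_se and 1190 to 1470 in KO_DTH. Of these 10, 7 were called higher with challenge in wild type, 5 with challenge in the knockout and 1 with genotype in sensitized nodes. The shares of all genes called higher were 9.77%, 5.81% and 3.76%. The part of these 10 in the differences of Il1b, Il1r2 and Ccr2 was not tested. Among receptors for these cytokines, the IL-1 decoy receptor gene Il1r2 rose in both genotypes, by 1.74 ± 0.2 and 0.95 ± 0.2, and Il12rb1, which pairs with Il23r, by 1.19 ± 0.25 and 1.04 ± 0.24 (edgeR adjusted p = 0.00015, 0.00936, 0.00585 and 0.0186). Il6st, the shared signalling chain of the IL-6 receptor, and Tgfbr1 fell with challenge in wild type, with differences of -0.51 ± 0.1 and -0.32 ± 0.09 (edgeR adjusted p = 0.00446 and 0.0273) that became 0.04 and 0.23 when scaled to pan T cell genes. In the knockout Tgfbr1 fell with challenge too, with a difference of -0.52 ± 0.09 (edgeR adjusted p = 0.0035), and Il6st had 0.01 ± 0.1. Il6st was lower in sensitized knockout than in sensitized wild-type nodes, at -0.62 ± 0.1 (edgeR adjusted p = 0.00527). Il22ra2, which encodes the soluble protein that binds IL-22, fell with challenge in both genotypes, with differences of -2.76 ± 0.75 and -3.81 ± 0.8 (edgeR adjusted p = 0.0219 and 0.00983).

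Among homing and surface genes Cxcr6 stood at 13.2 ± 2.56 CPM in WT_se and 38.8 ± 9.5 in KO_se, a difference of 1.56 ± 0.24 (edgeR adjusted p = 0.00403), and fell with challenge in the knockout by 1.04 ± 0.24 (edgeR adjusted p = 0.0152). Ccr2, carried by type 17 cells and by monocytes, was higher in sensitized knockout nodes by 1.28 ± 0.22 (edgeR adjusted p = 0.00733). Serpinb1a was higher there by 0.88 ± 0.11 (edgeR adjusted p = 0.00174). These 3 sensitized differences turned sign under gamma-delta scaling, to -0.57, -0.83 and -1.21. Il27ra, the receptor for the restraining cytokine IL-27, fell with challenge in wild type with a difference of -0.52 ± 0.08 (edgeR adjusted p = 0.00115), or 0.03 when scaled to pan T cell genes. The restraining factor Tbx21, the gene of T-bet, rose with challenge in both genotypes, by 0.71 ± 0.22 and 0.84 ± 0.22 (edgeR adjusted p = 0.0408 and 0.0317). Of the signalling genes downstream of the IL-17 receptor, Cebpb, Rela and Nfkb1 rose with challenge in both genotypes, Cebpb by 0.79 ± 0.2 and 1.29 ± 0.2 (edgeR adjusted p = 0.0144 and 0.00155).

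The interaction was called for 4 of the 84, 2 higher and 2 lower, where 1.67% and 0.439% of all genes were called. Cebpd, a related factor to Cebpb, had a challenge difference of -1.38 ± 0.46 in wild type that was not called and rose by 1.88 ± 0.46 in the knockout (edgeR adjusted p = 0.0548 and 0.0225), an interaction of 3.26 ± 0.65 (edgeR adjusted p = 0.0309). With the salivary score and the 2 salivary components that interaction became 0.32 and -0.2, and it was called in 4 of 12 fits without 1 library. Cd9, a surface gene named after its values were seen, fell with challenge in wild type, with a difference of -0.95 ± 0.2, and had 0.27 ± 0.2 in the knockout, an interaction of 1.22 ± 0.29 (edgeR adjusted p = 0.00681, 0.472 and 0.0494) that was -0.01 with the score. Irf4 and Serpinb1a rose with challenge in wild type by 0.39 ± 0.12 and 0.66 ± 0.11 and had -0.3 ± 0.12 and -0.02 ± 0.11 in the knockout, interactions of -0.69 ± 0.16 and -0.68 ± 0.16 (edgeR adjusted p = 0.0494 and 0.0476). These 3 calls were kept in 3, 2 and 2 of 12 fits without 1 library.

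Of 12 IL-17 response genes tested, 6 were called higher with challenge in wild type, 1 with challenge in the knockout, 3 with genotype in sensitized nodes and 0 in challenged nodes, where 9.77%, 5.81%, 3.76% and 0.514% of all genes were called higher. In challenged nodes 2 of the 12 had an unadjusted p under 0.05 in edgeR, and DESeq2's Wald test called 1. S100a8 and S100a9, antimicrobial proteins that neutrophils also carry in bulk, and Lcn2 were the 3 called in sensitized knockout nodes, S100a8 at 19.6 ± 7.39 CPM in WT_se and 84.6 ± 19.8 in KO_se (difference 2.11 ± 0.39, edgeR adjusted p = 0.00988). The 12 neutrophil genes, which include S100a8 and S100a9, summed to 78.3 to 143 CPM in WT_se and 241 to 391 in WT_DTH, against 283 to 453 in KO_se and 201 to 489 in KO_DTH, and their part in these differences was not tested. Saa3, an acute-phase gene, stood at 0.0635 ± 0.11 CPM in WT_se and 10.8 ± 3.03 in WT_DTH, and at 0.718 ± 0.907 and 11.5 ± 6.59 in KO_se and KO_DTH.

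**Figure D4:**
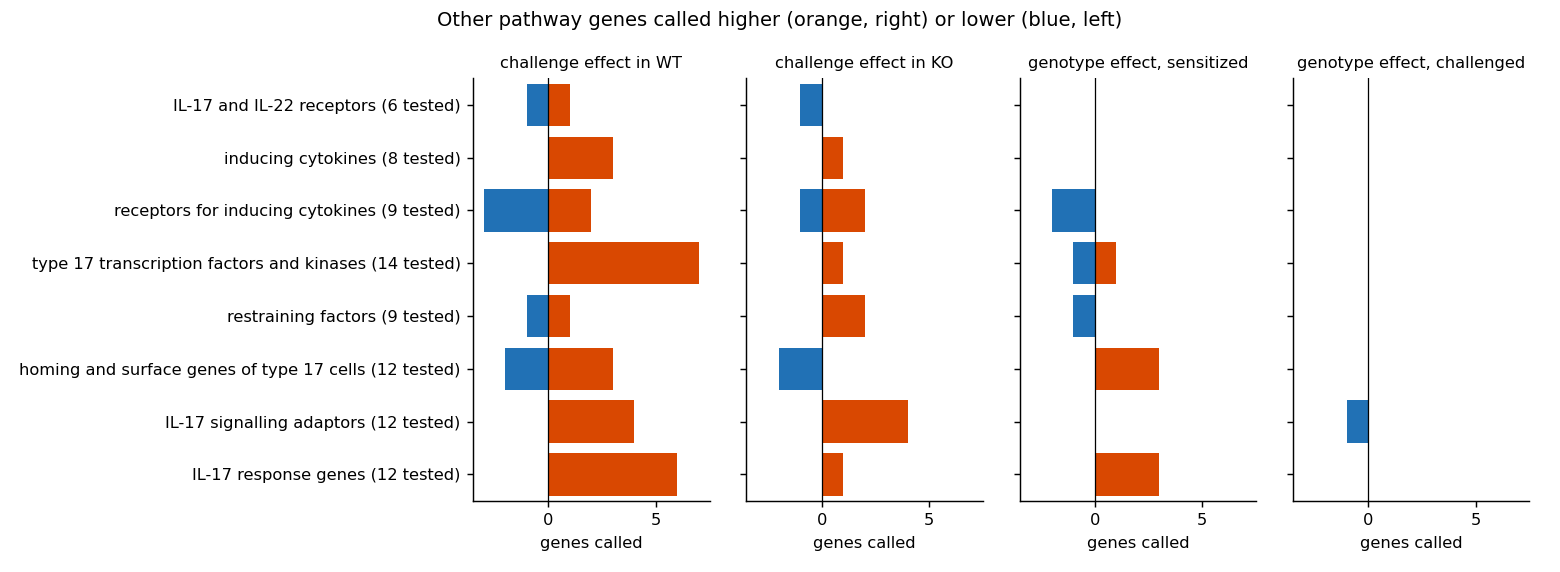
For 8 lists of other pathway genes, bars show how many were called higher (orange, to the right) or lower (blue, to the left) in each of 4 comparisons, with the number tested beside each list. The longest bar is that of the transcription factors and kinases with challenge in wild type (7 higher), and 1 bar, for 1 signalling gene called lower, stands under the genotype difference in challenged nodes.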

How the data were processed

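The series holds 12 RNA-seq libraries of mouse mandibular lymph node, grouped from the labels. The values are estimated counts per gene as the authors deposited them, whole numbers throughout. Per the submitters' processing notes the tools were fastp 0.23.2, HISAT2 2.2.1 and StringTie 2.2.1 and the genome build GRCm39. Per the labels' protocols the library kit was directional; whether counting used strand is not given in the sources used here. Rora shares 82 exonic bases with the opposite-strand Gm15511 (19 counts in all) and Maf 440 with Gm15655 (0 counts).

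GENCODE M21, which is on the older build GRCm38, gave symbols, exon lengths and 3′ UTRs, and RefSeq tables gave the sequences. Of 56941 IDs 51948 matched a symbol.

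Counts were fitted with edgeR 4.0.16 (quasi-likelihood, TMM, filterByExpr with a minimum count of 10, R 4.3.3) as 1 mean per group over all 12 libraries, with Benjamini-Hochberg adjustment over 20034 genes and a two-sided threshold of 0.05. DESeq2 1.42.0 served as an alternative. A result on 1 gene of the pathway lists is not reported here, and counts over the lists leave it out. The members and lists were chosen with earlier results of these data known. Named genes are all 9 members, up to 4 per pathway list by smallest p among those called, and the 10 genes most correlated with Il17a (mean of at least 50 counts). Alternatives were other scalings, filters, the Wald test, only the libraries compared, a replicate block, salivary covariates and each library left out; scaling to gamma-delta genes was added after the data were seen.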

Additional observations from a re-analysis of the deposited data

Results flagged for a closer look

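The challenge difference of Il17a was not the same in the 2 genotypes by the test of that difference itself: it was 0.48 ± 0.36 on the log2 scale in wild type and -1.51 ± 0.29 in the knockout, an interaction of -1.99 ± 0.46 (edgeR adjusted p = 0.0476). Over the 21 other settings run the estimate stayed negative and 4 called it, and none of the 12 fits without 1 library did. With the salivary score and the 2 salivary components the estimate was -2.4 ± 0.93 and -2.76 ± 0.87 and was not called. Salivary gland genes held 7.78 to 15.8% of counts in WT_se, 1.79 to 2.95% in WT_DTH, 2.62 to 6.79% in KO_se, and 3.68 to 10.6% in KO_DTH, and their part in this interaction was not tested. By the same test the challenge difference was not the same in the 2 genotypes for 4 other pathway genes: Cebpd (interaction 3.26 ± 0.65), Cd9 (1.22 ± 0.29), Irf4 (-0.69 ± 0.16) and Serpinb1a (-0.68 ± 0.16), with edgeR adjusted p = 0.0309, 0.0494, 0.0494 and 0.0476. Of the 21 other settings, 10, 7, 6 and 6 called them, and neither salivary covariate did. With the salivary score no gene of any kind was called for the interaction. Under the salivary covariates the estimates of Cebpd and Cd9 shrank to a small part or turned sign, with values given in the last section. Those of Irf4 and Serpinb1a kept their sign. The part of gland RNA in these interactions was not tested.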

How the results depend on the processing

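Of the 14 calls of members (2 and 3 with challenge in wild type and knockout, 6 and 2 with genotype in sensitized and challenged nodes, 1 for the interaction), DESeq2 size factors kept 14, the DESeq2 Wald test 13, scaling to pan T cell genes 11, no filter on low counts 10, the replicate block 9, either salivary covariate 3 and scaling to the gamma-delta constant genes 4, with 3 reversed. A fit on only the libraries compared kept 8 of 13, and a mean of at least 50 counts 12 of 12. Same-numbered libraries had correlations of -0.098 to 0.141, with 1 of 18 pairs above 0.1, so the numbers were not taken to pair samples. The causes of these changes were not tested.

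With challenge in wild type the members called numbered 5 with pan T cell scaling, all higher, where 8180 of 20034 genes were called higher and 744 lower. The members called numbered 1 with gamma-delta scaling, 1 with a mean of at least 50 counts, 1 with only the libraries compared, and 0 and 0 with the salivary score and the 2 salivary components. In the knockout they numbered 0 with gamma-delta scaling, 5 with DESeq2's Wald test, all lower, 1 with the replicate block and 1 and 1 with the salivary covariates. In sensitized nodes they numbered 2 and 2 with the salivary covariates and 5 with gamma-delta scaling (Il17a and Il17f higher, Ccr6, Maf and Rora lower). Under that scaling 32 of 20034 genes were called higher there and 16930 lower. In challenged nodes the members called numbered 1 with pan T cell scaling and 6 with gamma-delta scaling (Il17a higher, Il22, Ccr6, Il1r1, Maf and Rora lower). Under gamma-delta scaling 162 of 20034 genes were called higher there and 14967 lower. The members called numbered 1 each with no filter, only the libraries compared and the replicate block, and 0 and 0 with the salivary covariates. For the interaction they numbered 3 with pan T cell scaling, 4 with DESeq2's Wald test, and 0 with gamma-delta scaling, no filter, the replicate block or either salivary covariate. Without 1 library these 5 counts ran from 1 to 2, 1 to 3, 3 to 4, 1 to 2 and 0 to 0.

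Signs that turned under pan T cell scaling were those of the wild-type challenge difference of Rora (0.25), Ccr6 (0.33), Maf (0.52), Il6st (0.04), Tgfbr1 (0.23) and Il27ra (0.03), and of the challenged genotype difference of Maf (-0.05). That scaling moved the median of all genes by 0.55 and 0.25 for challenge in wild type and knockout, 0.25 and -0.06 for genotype in sensitized and challenged nodes, and -0.30 for the interaction. The share of calls that were higher went from 52.1 to 91.7%, 60.1 to 94.5%, 72.9 to 97.4%, 85.8 to 95% and 79.1 to 53.6% in the same order.

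Under gamma-delta scaling the median moved by 0.19, 0.59, -2.11, -1.7 and 0.4 and the higher share became 51.4, 98.4, 0.189, 1.07 and 99%. Maf with challenge in wild type became 0.17. With challenge in the knockout Il22 became 0.07, Rora 0.19, Il1r1 0.03, Ccr6 0.01, Maf 0.25 and Tgfbr1 0.09. In sensitized nodes Il23r became -0.53, Rora -1.82, Il1r1 -0.36, Ccr6 -1.72, Maf -1.78, Il17re -0.82, Irf4 -1.44, Serpinb1a -1.21, Ccr2 -0.83, Cxcr6 -0.57, S100a9 -0.08 and Lcn2 -0.43. In challenged nodes Il17f became -0.42, Il23r -0.72, Rora -1.52, Il1r1 -1.16 and Maf -1.7. The interaction of Rora became 0.3, of Ccr6 0.07 and of Maf 0.08.

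With the salivary score and the 2 components, in that order, Il22 became 0.01 and 0.07 with challenge in the knockout and 0.41 and 0.22 in challenged nodes, and Ccr6 became 0.5 and 0.35 there. Ccr6 in sensitized nodes was -0.01 with the score. The interaction of Cebpd became 0.32 and -0.2 and that of Cd9 -0.01 and 0.02, and it became 0.51 and 0.41 for Il23r, 0.18 and 0.11 for Rora, 0.51 and 0.1 for Ccr6, 0.19 and 0.26 for Maf and -0.91 and -1.08 for Il17re. Maf turned sign with no filter (0.01 with challenge in wild type, -0.02 in challenged nodes) and stood at -0.0 in challenged nodes with DESeq2 size factors and its Wald test. Without 1 library Maf ran from -0.17 to 0.05 with challenge in wild type and -0.06 to 0.08 in challenged nodes, Ccr6 from -0.44 to 0.1 and -0.43 to 0.14, and the interaction from -0.25 to 0.01 for Rora and -0.02 to 0.6 for Il17re.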
